A study of Mus musculus with 8 samples.

Results

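The genes described here encode carriers that move amino acids across membranes. They are the members of the solute carrier families SLC1, SLC3, SLC7, SLC36, SLC38 and SLC43 in the deposited gene table, found by their symbols with Slc1a3 left out. The rule found 41 of the table's 23420 genes, and 32 of the 41 had enough reads to be tested. Expression was measured by RNA sequencing in mesenchyme of the embryonic head, the loose tissue between skin and brain. All embryos were wild-type C57BL/6 mice at stage E12.5, and the labels name no treatment. Early migrating mesenchyme (EMM) and supraorbital mesenchyme (SOM), the tissue above the eye, gave 4 libraries each, every one made from the combined tissue of 4 or 5 embryos. Surface ectoderm and brain had been taken off after a short dispase digestion, per the labels' protocols. P-values given here measure the spread between these pools.

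Amino acid carriers supply cells with material for protein, nucleotides and glutathione. Many work as exchangers that give up one amino acid for another, others use the sodium or proton gradient, and several sit on lysosomes rather than on the cell surface. Light chains of the SLC7 family reach the plasma membrane when joined to an SLC3 heavy chain by a disulfide bond. Cells short of amino acids raise several of these genes through the kinase GCN2 and the transcription factor ATF4. The growth kinase complex mTORC1 is switched on by amino acids, in part through carriers on the lysosome.

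Slc7a11, the light chain that imports cystine in exchange for glutamate, had the largest difference of the 32 tested carriers, toward EMM, and its promoter holds 2 copies of a motif bound by ATF4. The motif TGATGNAAN, the composite site of ATF4 and C/EBP factors, was searched on both strands of RefSeq promoters, which run from 250 bases before to 50 bases after an annotated start (GRCm38.p6). RefSeq promoters were found for 30 of the 41 carriers, some with more than one, 41 in all. The stretch printed here ends at the base before the RefSeq start of Slc7a11, at chr3:50443614-50443723 on the reverse strand, and its capitals mark the motif, first on the gene's strand and then on the opposite strand.
Slc7a11: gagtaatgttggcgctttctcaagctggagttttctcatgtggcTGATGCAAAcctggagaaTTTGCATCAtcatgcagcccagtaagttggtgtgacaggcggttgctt
Slc1a4, with GTTGCATCA across its start, and Slc7a7, with TGATGCAAC and TGATGAAAG, were the other carriers with the motif. Of the carrier promoters 4 held the motif (9.76%), against 3.95% of all 32851 promoters of that length. Overlapping promoters of Slc7a7 share TGATGCAAC, so this site was counted more than once. By gene, 3 of the 30 carriers held the motif, against 4.5% of all genes. The core of the antioxidant response element, TGACNNNGC, was in 6 of the carrier promoters (14.6%) against 12.4% of all. These were promoters of Slc36a1, Slc38a2, Slc43a1, Slc7a1 and Slc7a6, with the Slc7a6 site again in overlapping promoters. By gene, 5 of the 30 carriers held that core, against 14.0% of all genes. No carrier promoter held both motifs, and a match describes letters, not a bound site.

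Values are normalized counts, which are read counts divided by a size factor for each library. Group values are the mean and SD over 4 libraries, written as mean ± SD. Libraries held 12.7 to 22.4 M reads in EMM and 16.8 to 33.7 M in SOM. All 10 head mesenchyme markers checked, such as Twist1, Prrx1 and Pdgfra, were present in every library at 467 normalized counts or more, 5 of them higher in EMM and 5 in SOM. Markers of other cell types differed between the groups. All 11 macrophage markers in the table were higher in EMM, where their summed level ran from 11656 to 14549.7 against 2946 to 3295 in SOM. Of 10 pericyte and smooth muscle markers 9 were higher in EMM and 1 in SOM (summed 61199.5 to 69064 against 10364 to 12293). Of 10 endothelial markers 7 were higher in EMM and 1 in SOM (summed 19578 to 25090.4 against 14522 to 17164). Over all genes tested, 36.1% were higher in EMM and 36.0% in SOM. Of the 13 red blood cell genes in the table, 8 were higher in EMM, and the globin genes Hba-a1, Hba-a2, Hbb-b1 and Hbb-b2 were listed at 0 in all libraries. Of 4 tested brain progenitor markers, 2 were higher in EMM, Nes among them, and 1, Emx2, in SOM, and the list of 10 summed to 7560.0 to 8868 in EMM and 3274 to 3487 in SOM. Among 10 tested surface ectoderm markers, Krt8, Cdh1 and Cdh3 were higher in EMM and 7 did not pass, Epcam and Krt5 among them (summed 4212 to 4622 against 1617 to 2108). Their median log2 difference (SOM minus EMM) was 0.50, on the SOM side. Over the 11 listed, the mean of log2(normalized count + 1) overlapped, at 4.45 to 6.46 in EMM and 5.11 to 5.83 in SOM. Skeletal muscle markers were higher in EMM for 6 of 7 tested (summed 451 to 710.3 against 158 to 186), with no read of Myod1 in EMM or of Myf5 in any library. In bulk tissue, fewer cells of a type and less RNA per cell cannot be told apart, and the part of these cell types in the carriers' differences was not tested. EMM replicate 3 had the highest sum of red blood cell genes, SOM replicate 4 the highest sum of immediate early genes, and EMM replicate 2 the fewest reads. Earlier results of these data set the 3 libraries apart, so the main counts are also given without them.

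Carriers differed in both directions, more of them toward EMM. Of the 32 tested, 24 passed the threshold, which is 75% against 72.1% of all 14249 genes tested (limma with Benjamini-Hochberg adjustment over all genes, threshold 0.05). They divided into 16 higher in EMM (50%, against 36.1% of all genes) and 8 higher in SOM (25%, against 36.0%). The EMM and SOM libraries did not overlap for 24 carriers (75%, against 66.1% of all genes). Differences of at least 2-fold were found in 7 carriers toward EMM, which is 21.9% against a background of 11.0%, and in 1 toward SOM, which is 3.12% against 5.19%. Slc38a5, among the 7, and Slc1a1, the 1 toward SOM, had enough reads to be tested only through their higher group. Neither is thus support for a direction in these counts. The median log2 difference (SOM minus EMM) was -0.27 for the carriers and 0.01 for all genes. These differences are on the scale of log2(normalized count + 1), which understates the change of genes with few reads. In the authors' deposited table, 17 of the 39 carriers with an adjusted p were higher in EMM and 8 in SOM, beside 29.1% and 28.1% of all its genes. With EMM replicates 2 and 3 and SOM replicate 4 left out, 31 carriers were tested and 16 were higher in EMM and 7 in SOM.

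**Figure D1:**
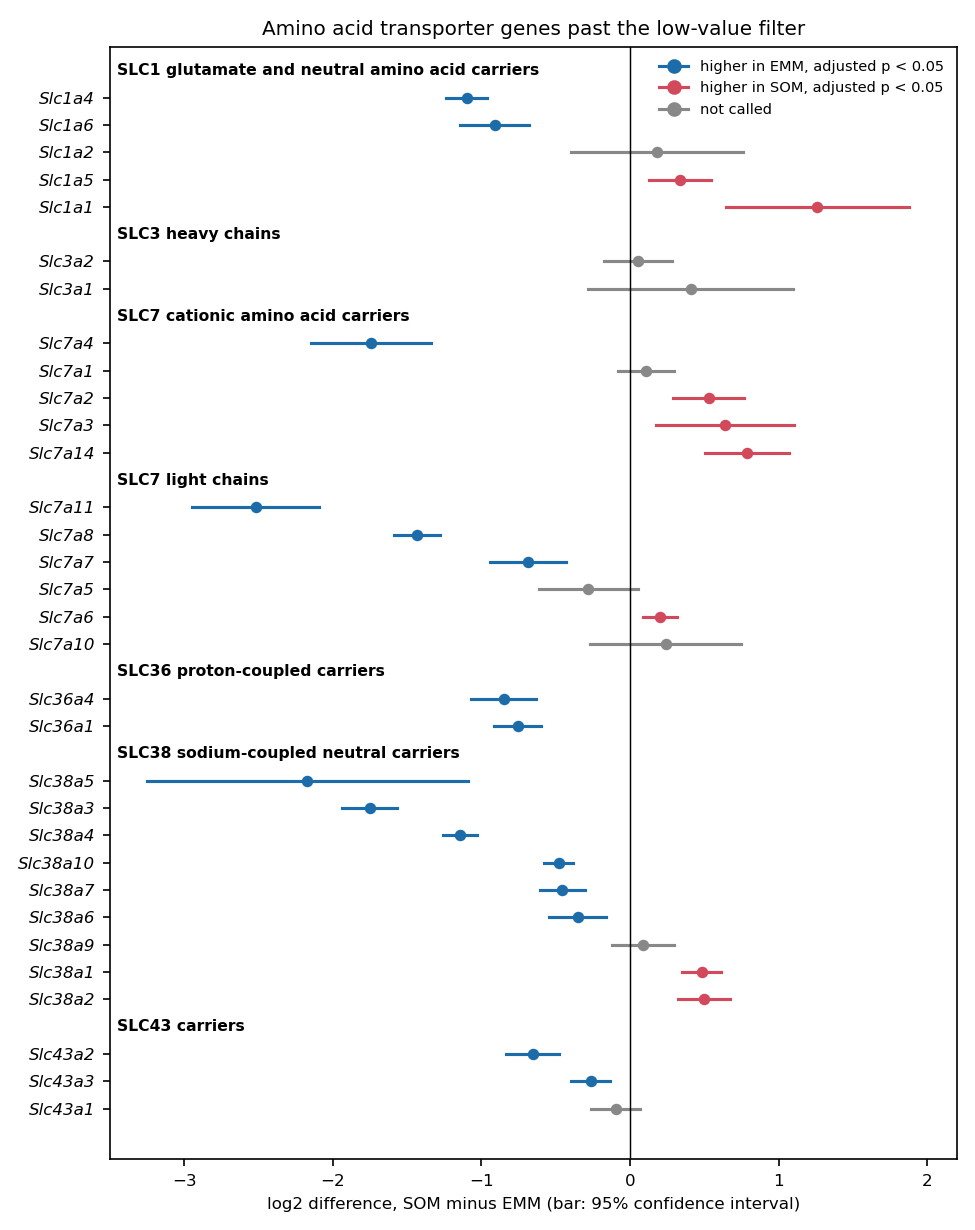
The log2 difference (SOM minus EMM, x axis) of each of the 32 tested carriers is plotted with its 95% confidence interval from limma, grouped by family and coloured by call. Points reach from -2.52 for Slc7a11 to 1.26 for Slc1a1, and both tested SLC36 carriers lie left of 0.

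Slc3a2 (also known as CD98), the heavy chain that the amino acid exchangers of the SLC7 family share, was found at overlapping levels in both tissues, while several of its light chains differed. It stood at 2258, 2478, 2694 and 2632 normalized counts in EMM replicates 1 to 4 and at 2202, 2471, 2650.0 and 3179 in SOM replicates 1 to 4. SOM replicate 1 was lowest and SOM replicate 4 highest of all. Limma gave a log2 difference (SOM minus EMM) of 0.05 (SE 0.10, limma adjusted p = 0.663), with a 95% interval of -0.18 to 0.28. The summed level of 12 immediate early and heat shock genes was 14477, 26593, 29709 and 23217 in EMM and 9496, 19743, 17551 and 40587 in SOM, so that replicate 1 of each group was lowest there too and EMM replicate 3 and SOM replicate 4 were highest. None of those 12 genes was called, and none had an unadjusted p below 0.05, by limma, edgeR, DESeq2 or limma-voom. Their part in the spread of Slc3a2 was not tested.

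Slc7a11 had 193, 107, 109 and 108 normalized counts in EMM replicates 1 to 4 against 18.9, 18.9, 23.0 and 23.4 in SOM replicates 1 to 4. Every EMM library lay above every SOM library, and EMM replicate 1 lay far above the other EMM libraries. SOM minus EMM came to -2.52 (SE 0.20, limma adjusted p = 1.27e-08) on the log2 scale, a 6.14-fold difference of the means, and it was -2.31 without EMM replicate 1. The gene lies on chromosome 3 from 49892526 to 50443614 on the reverse strand (GENCODE M21, GRCm38), and the printed motif copies lie just before its start. Slc7a11 is known from the meninges, and of 11 tested meninges markers 9 were higher in EMM and 1 in SOM, with summed levels of 126150.3 to 137061 in EMM and 96963 to 114865 in SOM. Their part in its difference was not tested.

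Slc7a8, the light chain of an exchanger of small and large neutral amino acids, differed with little spread. It had 755, 732, 742 and 753 normalized counts in EMM and 248, 268, 301 and 286 in SOM, with no overlap. The fitted log2 difference (SOM minus EMM) was -1.44 (SE 0.07, limma adjusted p = 5.58e-11), at 746 ± 10.6 against 276 ± 22.8. It lies on chromosome 14 from 54722209 to 54781946 on the reverse strand, and its family member Slc7a7 lies on the same chromosome and strand from 54369442 to 54417780.

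Slc7a7 exports cationic amino acids in exchange for neutral ones and is known from macrophages and gut epithelium. It had 149, 127, 170.4 and 144 normalized counts in EMM and 95.7, 87.5, 86.2 and 94.2 in SOM, with no overlap and a log2 difference of -0.69 (SE 0.12, limma adjusted p = 9.28e-05). All 11 macrophage markers were on the same side, and their part in the difference of Slc7a7 was not tested. Slc7a7 shares 232 exonic bases with Oxa1l on the other strand. The sources used here do not say whether counting used the strand, so reads of such overlapping pairs cannot be assigned. The same holds for 9 other tested carriers, Slc1a1, Slc1a2, Slc3a1, Slc7a2, Slc7a4, Slc7a10, Slc38a9, Slc38a10 and Slc43a2, which share 182 to 2631 exonic bases with a gene on the other strand.

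Slc7a6, a light chain with the same exchange as Slc7a7, went the other way by a small amount. It had 1229.5, 1124, 1178 and 1178 normalized counts in EMM replicates 1 to 4 and 1268, 1419.7, 1367 and 1372 in SOM replicates 1 to 4. The libraries did not overlap, and the log2 difference was 0.20 (SE 0.05, limma adjusted p = 0.00299). That call was lost with EMM replicates 2 and 3 and SOM replicate 4 left out, at 0.17 (limma adjusted p = 0.0531).

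Slc7a5, the light chain that imports leucine and other large neutral amino acids, did not pass. Its values were 1202, 1131, 1863 and 1336 in EMM and 1060.3, 1083, 1164 and 1165 in SOM, with EMM replicate 3 high and EMM replicate 2 inside the SOM range. The log2 difference was -0.28 (SE 0.14, limma adjusted p = 0.114), with a 95% interval of -0.61 to 0.05. It was -0.13 without EMM replicate 3. Slc7a5 passed, toward EMM, without EMM replicate 2 (limma adjusted p = 0.0366) and in edgeR (adjusted p = 0.0397). It also passed with EMM replicates 2 and 3 and SOM replicate 4 left out, at -0.20 (limma adjusted p = 0.0281).

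Other chains did not pass or were below the filter on low values. Slc7a10, which carries small neutral amino acids such as serine, had 32.6 ± 11.3 in EMM and 37.9 ± 9.17 in SOM, a log2 difference of 0.24 (SE 0.24, limma adjusted p = 0.380). Slc3a1, the heavy chain of the cystine carrier of the kidney, had 9.27 ± 2.71 in EMM and 12.6 ± 3.68 in SOM, a log2 difference of 0.41 (SE 0.33, limma adjusted p = 0.269). Its light chain partners Slc7a9 and Slc7a13 were below the filter.

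**Figure D2:**
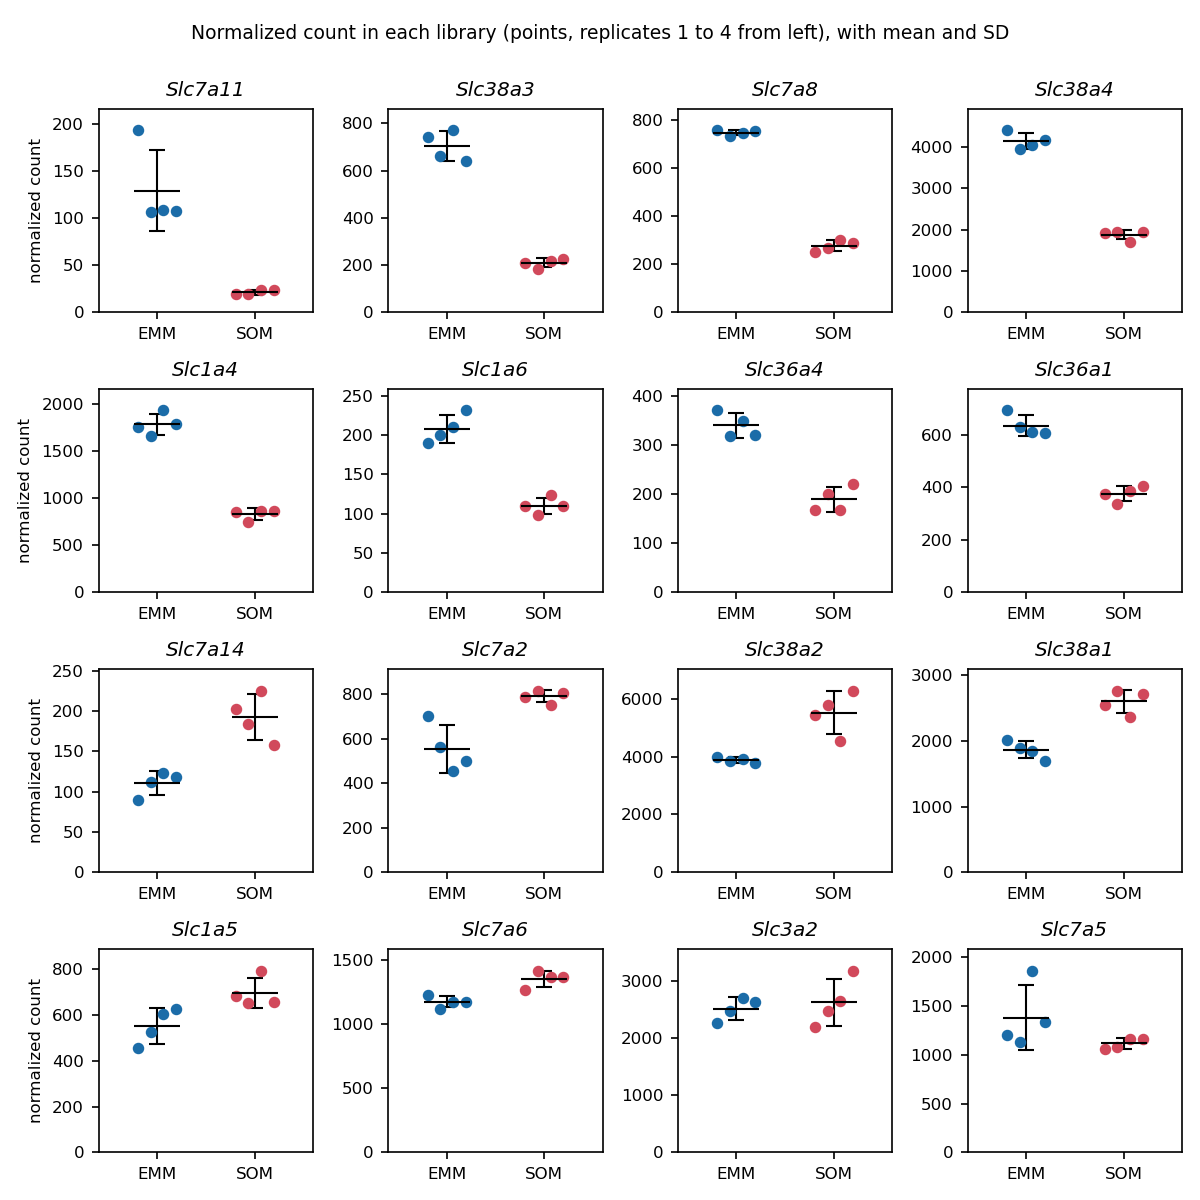
Each panel plots the normalized count of a carrier (y axis, from 0) in the 4 EMM and 4 SOM libraries as points, with the mean as a horizontal line and the SD as whiskers. The first 14 panels are carriers past the threshold, whose groups do not overlap, and in the last panels, Slc3a2 and Slc7a5, the groups overlap.

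The light chains that pair with Slc3a2 formed a different mixture in the tissues, with more Slc7a8 in EMM and more Slc7a6 in SOM. Levels of different genes were compared as normalized counts per kb of merged GENCODE M21 exons. Slc7a5 was the largest light chain in each EMM library, with 39.7 to 51.3% of the summed level of Slc7a5, Slc7a6, Slc7a7, Slc7a8, Slc7a10 and Slc7a11, and took 41.6 to 43.9% in SOM. Slc7a6 took 26.3 to 33.0% in EMM and 41.3 to 44.3% in SOM. The share of Slc7a8 was 15.2 to 19.1% in EMM and 7.52 to 8.29% in SOM. Both genes' ranges were thus apart, while those of Slc7a5 overlapped. Slc7a11 stayed a minor part, at 0.798 to 1.70% in EMM and 0.193 to 0.234% in SOM. The ratio of the summed light chains to Slc3a2 was 1.09 to 1.28 in EMM libraries and 0.795 to 1.06 in SOM libraries, where SOM replicate 4 was lowest.

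The sodium-coupled carriers of neutral amino acids known as system A differed in opposite directions. Slc38a4 was higher in EMM, while Slc38a2 and Slc38a1 were higher in SOM. These 3 genes lie on the reverse strand of chromosome 15, with Slc38a1 from 96571418 to 96642913, Slc38a2 from 96687392 to 96699730 and Slc38a4 from 96994820 to 97055956. Slc38a4, an imprinted gene known from placenta and liver, had 4411, 3958, 4063 and 4168 normalized counts in EMM replicates 1 to 4 and 1913, 1941, 1711 and 1945 in SOM replicates 1 to 4. No SOM library came near the EMM libraries. On the log2 scale, SOM minus EMM was -1.14 (SE 0.05, limma adjusted p = 2.46e-11).

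Slc38a2, the system A carrier that cells raise when amino acids run short, had 3979.8, 3852, 3909.8 and 3764 in EMM and 5442, 5789, 4539 and 6279 in SOM. The EMM libraries were close together, and the SOM libraries spread widely from replicate 3 to replicate 4, all above them. The log2 difference was 0.50 (SE 0.08, limma adjusted p = 0.000101). Slc38a1 had 2015, 1898, 1843 and 1702 in EMM against 2555, 2768, 2369.8 and 2719 in SOM, with no overlap and a log2 difference of 0.48 (SE 0.06, limma adjusted p = 3.02e-06).

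As a share of these 3 carriers' summed level per kb of exon, Slc38a4 led in EMM and Slc38a2 in SOM. Slc38a4 made up 63.0 to 65.1% in EMM libraries and 34.5 to 38.2% in SOM libraries. Slc38a2 made up 28.1 to 29.5% in EMM and 48.8 to 53.6% in SOM. The shares depend on the transcript length used. With the longest coding transcript in place of all exons, a choice made after seeing the data, Slc38a4 made up 48.1 to 50.4% in EMM and 22.3 to 25.1% in SOM, and the ranges were still apart. The summed level of the 3 carriers per kb of exon was 1521 ± 56.0 in EMM and 1215 ± 118 in SOM. This gap also depends on the length used and was smaller with the longest coding transcript. Mean levels of Slc38a4, Slc38a2 and Slc38a1 were then 1056, 832 and 257 in EMM and 477, 1183 and 358 in SOM.

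**Figure D3:**
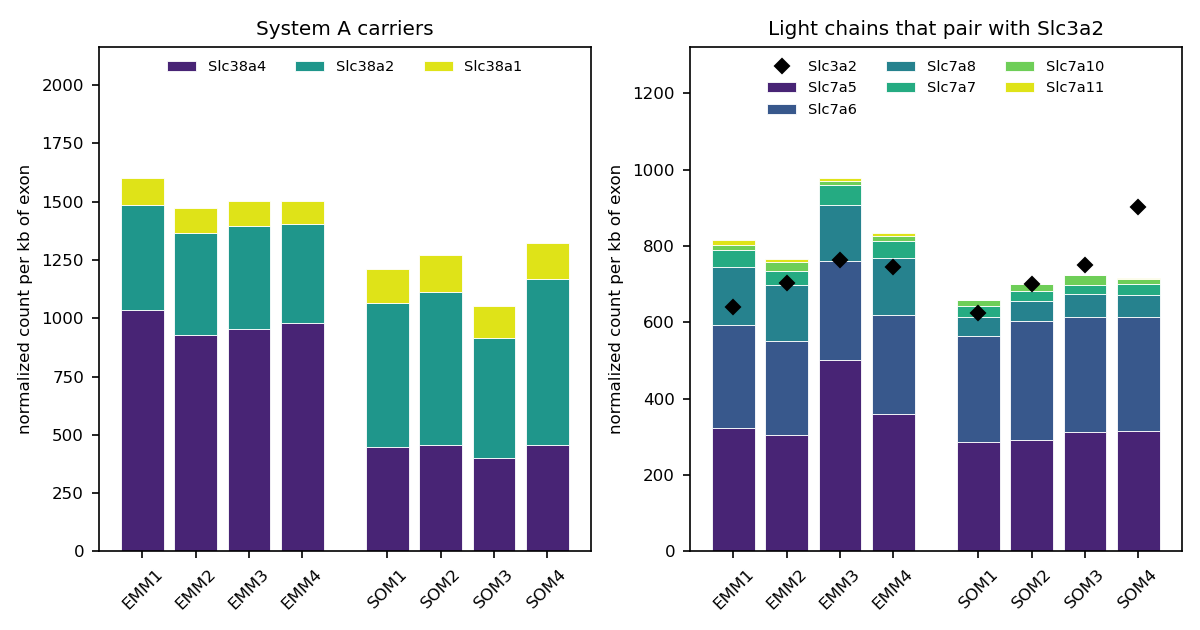
Stacked bars show, for each of the 8 libraries, the normalized count per kb of exon (y axis) of the system A carriers (left) and of the light chains that pair with Slc3a2 (right, with Slc3a2 itself as black diamonds). The Slc38a4 block is 63.0 to 65.1% of the left bars in EMM and 34.5 to 38.2% in SOM, and the Slc7a8 block is 15.2 to 19.1% of the right bars in EMM and 7.52 to 8.29% in SOM.

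Both glutamine carriers of system N, Slc38a3 and Slc38a5, were higher in EMM. Slc38a3 is known from liver, kidney and astrocytes. It had 744, 659.7, 770.5 and 642 normalized counts in EMM replicates 1 to 4 and 207, 183, 218 and 226 in SOM replicates 1 to 4, and the groups were far apart. Limma gave a log2 difference (SOM minus EMM) of -1.75 (SE 0.09, limma adjusted p = 4.71e-11), at 3.38-fold. Of the 4 tested brain progenitor markers, 2 were on the same side, Nes among them, and 1, Emx2, was on the other. The part of such cells in the difference of Slc38a3 was not tested. Slc38a3 lies on chromosome 9 from 107650634 to 107669530 on the reverse strand.

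Slc38a5 had fewer reads, at 26.6, 45.2, 117 and 22.9 normalized counts in EMM and 5.04, 7.70, 9.57 and 14.7 in SOM. The lowest EMM library was above the highest SOM library, and EMM replicate 3 was far above the rest. The log2 difference was -2.17 (SE 0.49, limma adjusted p = 0.00207), and -1.69 without EMM replicate 3. With EMM replicates 2 and 3 and SOM replicate 4 left out, Slc38a5 was below the filter and not tested. The summed level of red blood cell genes was 114975, 202918, 297952 and 142504 in EMM and 58858, 67748, 73833 and 69487 in SOM, so that EMM replicate 3 was highest there too. Of 6 markers of blood-brain barrier vessels, 4 were higher in EMM and Mfsd2a was higher in SOM, with summed levels of 3815 to 5361 in EMM and 2853 to 3644 in SOM. The part of either in the level of Slc38a5 was not tested.

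Slc36a1 and Slc36a4 of the SLC36 family and the lysosomal carrier Slc38a7 were higher in EMM, while the lysosomal Slc38a9 did not pass. Slc36a1 exports small amino acids from lysosomes. It had 693, 629, 612 and 607 normalized counts in EMM and 374, 337, 387 and 407 in SOM, with no overlap. SOM minus EMM came to -0.76 (SE 0.08, limma adjusted p = 1.69e-07) on the log2 scale. Its relative Slc36a4 had 370.0, 318, 349 and 320.4 in EMM and 167, 201, 167 and 219.7 in SOM. All EMM libraries were again above all SOM libraries, and the log2 difference was -0.85 (SE 0.10, limma adjusted p = 1.74e-06).

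Slc38a7, which releases glutamine and asparagine from lysosomes, had 670.5, 618, 657 and 652 in EMM and 448, 461, 534 and 455 in SOM. SOM replicate 3 stood above the other SOM libraries but below every EMM library, and the log2 difference was -0.45 (SE 0.07, limma adjusted p = 2.24e-05). Slc38a9, the lysosomal arginine sensor of mTORC1, had 207 ± 19.4 in EMM and 220.1 ± 13.4 in SOM. Its log2 difference was 0.09 (SE 0.10, limma adjusted p = 0.425), with a 95% interval of -0.12 to 0.29.

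The less studied family members Slc38a10 and Slc38a6 were both higher in EMM. Slc38a10 had 4108, 4231, 4204 and 4377 in EMM and 3022, 2900.3, 3041 and 3160.1 in SOM, with no overlap and a log2 difference of -0.48 (SE 0.05, limma adjusted p = 9.79e-08). Slc38a6 had 384 ± 11.0 in EMM and 302 ± 37.3 in SOM, a log2 difference of -0.35 (SE 0.09, limma adjusted p = 0.00210).

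In the SLC1 family, the exchangers of small neutral amino acids were on opposite sides. Slc1a4, which exchanges alanine, serine and cysteine, had 1755, 1661, 1936 and 1793 normalized counts in EMM replicates 1 to 4 and 851, 744, 869.9 and 867 in SOM replicates 1 to 4. The groups did not overlap. The fitted log2 difference (SOM minus EMM) was -1.10 (SE 0.06, limma adjusted p = 2.95e-10), and the gene lies on chromosome 11 from 20302180 to 20332713 on the reverse strand. Slc1a5, the glutamine exchanger of growing cells, was slightly higher in SOM, with 457, 524, 603 and 627 in EMM and 681, 653, 794 and 656 in SOM. The highest EMM library, replicate 4, was just below the lowest SOM library, replicate 2, and the log2 difference was 0.34 (SE 0.10, limma adjusted p = 0.00623).

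The glutamate carriers of the family, best known from nerve tissue, differed from each other too. Slc1a6, a carrier of cerebellar Purkinje cells, had 190.1, 201, 210.1 and 232 in EMM and 109.6, 98.7, 123 and 109.5 in SOM, with separated groups and a log2 difference of -0.91 (SE 0.11, limma adjusted p = 1.58e-06). Slc1a1, a carrier of neurons and kidney, was the one tested carrier at least 2-fold higher in SOM, with 14.3, 7.23, 6.27 and 10.8 in EMM and 22.7, 21.0, 20.4 and 30.7 in SOM and a log2 difference of 1.26 (SE 0.29, limma adjusted p = 0.00102). It shares 2631 exonic bases with 4430402I18Rik on the other strand. Slc1a2, the main glutamate carrier of astrocytes, had 19.4 ± 5.02 in EMM and 22.1 ± 6.12 in SOM and did not pass, with a log2 difference of 0.18 (SE 0.27, limma adjusted p = 0.559). Slc1a7, the carrier of the retina, was below the filter, with 7 reads in all EMM libraries and 56 in all SOM libraries. Scaled by the size factors, SOM stood 4.89-fold above EMM there (exact 95% counting interval 2.22 to 12.7).

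Neuron and glia markers also differed between the groups. The 9 tested neuron markers held 5 higher in SOM (55.6%, against 36.0% of all genes) and 3 in EMM (33.3%, against 36.1%). The neuron list summed to 1197 to 1614 in EMM and 2932 to 3151 in SOM. Among 12 glia and melanoblast markers 8 were higher in SOM (66.7%) and 4 in EMM (33.3%). Of these, 7 were at least 2-fold higher in SOM (58.3%, against 5.19% of all genes) and 2 in EMM (16.7%, against 11.0%). The summed levels of the 12 were 1865 to 2232 in EMM and 1870.1 to 2172 in SOM. Their mean log2(normalized count + 1) was 4.71 to 5.14 in EMM and 6.83 to 7.05 in SOM. Foxd3 had no read in EMM, so it passed the filter through SOM alone. The part of neurons and glia in the values of the glutamate carriers and of Slc7a14 was not tested.

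Another 5 genes carry, or resemble carriers of, the cationic amino acids arginine, lysine and ornithine. Of these relatives 3 were higher in SOM (60%, against 36.0% of all genes) and 1 in EMM (20%, against 36.1%). Slc7a1, the widespread member, had 627, 512, 698 and 541 normalized counts in EMM and 612, 608, 640.2 and 689 in SOM. The groups overlapped, and the log2 difference was 0.11 (SE 0.09, limma adjusted p = 0.277). It passed without EMM replicate 3, at 0.19 (limma adjusted p = 0.0448). Slc7a2, known from liver and activated macrophages, had 703, 562, 455 and 499 in EMM and 786, 817, 754 and 807 in SOM. EMM replicate 1 was the closest to SOM but still below it, and the log2 difference was 0.53 (SE 0.11, limma adjusted p = 0.000806). The macrophage markers were higher in EMM, and their part in the values of Slc7a2 was not tested.

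Slc7a14, a related protein known from neurons and retina, had 89.9, 112, 123 and 118 in EMM and 203, 184, 225 and 158 in SOM. No library overlapped, and the log2 difference was 0.79 (SE 0.13, limma adjusted p = 5.88e-05). Slc7a3, an arginine carrier known from the brain, had 20.2 ± 4.65 in EMM and 31.7 ± 3.51 in SOM, with a log2 difference of 0.64 (SE 0.22, limma adjusted p = 0.0149). Slc7a4, whose transport activity is unclear, was the relative higher in EMM, with 105, 83.1, 76.3 and 116 in EMM and 30.2, 21.0, 26.2 and 33.4 in SOM. The groups were far apart, at a log2 difference of -1.74 (SE 0.19, limma adjusted p = 5.05e-07), and 554 of its exonic bases are shared with P2rx6 on the other strand.

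Uniporters of the SLC43 family were higher in EMM or did not pass. Slc43a2, which carries leucine and other large neutral amino acids, had 525, 483, 561 and 512 normalized counts in EMM and 334, 286, 369 and 334 in SOM, a log2 difference of -0.66 (SE 0.08, limma adjusted p = 3.07e-06). Slc43a3, whose known substrates are purine bases rather than amino acids, had 1399 ± 117 in EMM and 1163 ± 45.3 in SOM, a log2 difference of -0.26 (SE 0.06, limma adjusted p = 0.00111). Slc43a1, a carrier of large neutral amino acids, had 655 ± 81.4 in EMM and 609 ± 9.30 in SOM and did not pass, with a log2 difference of -0.10 (SE 0.08, limma adjusted p = 0.267). EMM replicate 3 was its highest library, at 771, as it was for Slc7a5 and Slc38a5.

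A further 9 carriers were below the filter, which asked for 10 normalized counts in 4 libraries, and were not tested here. Slc36a3 and Slc7a12 had no read in any library, which allows a level of up to 0.928 normalized counts in EMM and 0.567 in SOM, taking 3 reads summed over a group as the floor. Slc38a8, a glutamine carrier of the eye, had 17 EMM reads and 6 SOM reads, which scaled to an EMM to SOM ratio of 4.64 (exact 95% counting interval 1.74 to 14.4). Slc36a2, a proton-coupled carrier of kidney and muscle, had 9 EMM reads and 1 SOM read, which scaled to 14.7 (counting interval 2.04 to 646). Both genes thus had more reads for their depth in EMM. Slc7a13 had 5 EMM reads and no SOM read, at least 2.73-fold higher in EMM when set against the floor, with a lower limit of 1.5 for the exact 95% counting interval of the ratio. Slc7a9, Slc38a11 and Slc7a15 had 15, 12 and 3 EMM reads and 30, 8 and 1 SOM reads, with counting intervals of the ratio that included 1. These intervals and the floor cover counting error only.

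Summed per kb of exon, the 41 carriers came to 5611 ± 225 in EMM and 4460.2 ± 221 in SOM. SLC38 carriers were the largest family in every library, with 43.6 to 47.4% of that sum in EMM and 39.8 to 44.3% in SOM. By mean level per kb the EMM order was Slc38a4 (974 ± 45.5), Slc3a2 (713 ± 55.1), Slc38a10 (659 ± 17.4), Slc1a4 (455 ± 29.1) and Slc38a2 (439 ± 10.3). The SOM order was Slc3a2 (744 ± 117), Slc38a2 (624 ± 83.1), Slc38a10 (472 ± 16.6), Slc38a4 (441 ± 26.2) and Slc7a5 (301 ± 14.6). Some neighbours in these orders differed by less than the sum of their SDs. These were Slc3a2 and Slc38a10, and Slc1a4 and Slc38a2, in EMM, and Slc3a2 and Slc38a2, and Slc38a10 and Slc38a4, in SOM. The same held for places 5 and 6, where place 6 was Slc7a5 in EMM (373 ± 89.3) and Slc7a6 in SOM (297 ± 13.9). Slc1a4 stood in place 4 in EMM and 8 in SOM, and Slc38a1 in place 15 and 10. The orders depended on the length used. With the longest coding transcript as the length, the EMM order began with Slc38a4, Slc38a10, Slc3a2, Slc38a2 and Slc43a3, and the SOM order with Slc38a2, Slc3a2, Slc38a10, Slc38a4 and Slc43a3. Slc1a4 was then in place 6 in EMM and 10 in SOM, Slc7a5 in place 7 and 8, and Slc38a1 in place 9 and 7. The 5 cationic relatives took 2.47 to 3.08% of the sum in EMM and 3.76 to 4.12% in SOM. The SLC36 carriers took 2.75 to 3.27% and 2.06 to 2.22%, so that the ranges of both families were apart.

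Genes of the amino acid response, which runs through GCN2 and ATF4 when amino acids are scarce, were more often higher in SOM than in EMM. The 38 tested held 18 toward SOM (47.4%, against 36.0% of all genes) and 6 toward EMM (15.8%, against 36.1%), with 14 genes not past the threshold and a median log2 difference of 0.14. Cbs, among the 18, and Stc2, among the 6, passed the filter only through their higher group. Neither is thus support for a direction in these counts. Atf4 itself had 4446, 4725, 5124 and 5334 normalized counts in EMM replicates 1 to 4 and 5797, 6339, 6677 and 7299.9 in SOM replicates 1 to 4. The groups did not overlap, and the log2 difference was 0.41 (SE 0.07, limma adjusted p = 0.000151).

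The list holds the enzymes of serine synthesis. Phgdh, its first enzyme, had 1670.4 ± 42.9 in EMM and 4616 ± 254 in SOM (log2 difference 1.46, limma adjusted p = 4.61e-13). Psat1, the next enzyme, had 1552 ± 27.3 in EMM and 2329 ± 52.7 in SOM (log2 difference 0.59, limma adjusted p = 1.02e-08). Psph, the last, had 197 ± 13.7 in EMM and 199.9 ± 13.8 in SOM (log2 difference 0.02, limma adjusted p = 0.870) and did not pass. Vldlr, a lipoprotein receptor that ATF4 also controls, had 104 ± 18.6 in EMM and 363 ± 16.5 in SOM (log2 difference 1.81, limma adjusted p = 1.33e-09). Asns, the asparagine synthetase, had 726 ± 37.8 in EMM and 1013 ± 29.5 in SOM (log2 difference 0.48, limma adjusted p = 1.45e-06). The list's 12 tRNA synthetase genes, which load amino acids onto tRNA, held 7 higher in SOM (58.3%, against 36.0% of all genes). Those differed by at most 0.29 on the log2 scale, and the other 5 did not pass. None of the 12 was higher in EMM at an unadjusted p below 0.05 by limma, edgeR, DESeq2 or limma-voom.

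Members higher in EMM included Pycr1, the last enzyme of proline synthesis, with 588 ± 23.1 in EMM and 282 ± 29.5 in SOM (log2 difference -1.06, limma adjusted p = 8.45e-09). Nupr1, a stress-induced nuclear protein, had 211 ± 41.7 in EMM and 57.6 ± 10.3 in SOM (log2 difference -1.85, limma adjusted p = 3.39e-08). Cth, the enzyme that makes cysteine from cystathionine, had 199 ± 24.2 in EMM and 105 ± 7.05 in SOM (log2 difference -0.92, limma adjusted p = 2.30e-06), on the same side as the cystine importer Slc7a11. Trib3, like Slc7a11 a known target of ATF4, had 159.9 ± 31.1 in EMM and 83.1 ± 10.1 in SOM (log2 difference -0.92, limma adjusted p = 3.88e-05). Atf4, Psph, Asns, Trib3, Cbs, Stc2 and the tRNA synthetases were picked out after their values were seen.

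Cystine taken up by Slc7a11 feeds glutathione, and genes of glutathione use differed in both directions. The 19 tested held 8 toward EMM (42.1%, against 36.1% of all genes) and 5 toward SOM (26.3%, against 36.0%), with 6 genes not past the threshold and a median log2 difference of -0.04. Ggt1, among the 8, passed the filter only through its EMM libraries, at 31.0 ± 10.2 in EMM and 10.0 ± 1.07 in SOM. Its place is thus no support for the list's direction. Nfe2l2, the transcription factor of the antioxidant response, had 1136 ± 75.3 in EMM and 765 ± 47.5 in SOM (log2 difference -0.57, limma adjusted p = 7.47e-07). Hmox1, a heme-degrading target of it that macrophages also express, had 1618 ± 199 in EMM and 763 ± 85.6 in SOM (log2 difference -1.08, limma adjusted p = 3.67e-07). The subunits of the enzyme that starts glutathione synthesis were on opposite sides. Its modifier Gclm had 620.5 ± 62.3 in EMM and 419.5 ± 15.3 in SOM (log2 difference -0.56, limma adjusted p = 5.68e-06). The catalytic Gclc had 475 ± 28.2 in EMM and 623 ± 41.1 in SOM (log2 difference 0.39, limma adjusted p = 0.000104). Gss, which completes glutathione, was on the side of Gclc and had 396 ± 16.1 in EMM and 509.5 ± 47.1 in SOM (log2 difference 0.36, limma adjusted p = 0.000500). The glutathione transferase gene Gstp1 had 538 ± 40.9 in EMM and 692 ± 79.8 in SOM (log2 difference 0.36, limma adjusted p = 0.000986).

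Among genes that couple amino acids to mTORC1, calls were found on both sides. The 33 tested held 11 toward SOM (33.3%, against 36.0% of all genes) and 8 toward EMM (24.2%, against 36.1%), with 14 genes not past the threshold and a median log2 difference of 0.06. Gatsl3, the older symbol of the arginine sensor Castor1, had 158 ± 10.2 in EMM and 40.3 ± 11.1 in SOM (log2 difference -1.99, limma adjusted p = 4.32e-08). Rragd, a GTPase that brings mTORC1 to the lysosome, had 793 ± 66.0 in EMM and 333 ± 57.3 in SOM (log2 difference -1.26, limma adjusted p = 2.21e-07). Sesn1, of the leucine-sensing sestrin family, had 1405 ± 92.3 in EMM and 885 ± 49.9 in SOM (log2 difference -0.67, limma adjusted p = 6.93e-08). Nprl2, a subunit of a complex that inhibits mTORC1, had 376 ± 39.8 in EMM and 549 ± 49.7 in SOM (log2 difference 0.54, limma adjusted p = 3.60e-05). Itfg2, of the complex that holds the inhibiting complex on the lysosome, had 436 ± 30.5 in EMM and 576 ± 44.8 in SOM (log2 difference 0.40, limma adjusted p = 0.000158). Mtor itself, looked up after the others, did not pass, with 1489 ± 87.0 in EMM and 1569 ± 45.1 in SOM (log2 difference 0.08, limma adjusted p = 0.206).

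Amino acid carriers of other families were also more often higher in EMM than in SOM. Of 24 genes listed, 15 were tested, and these held 7 toward EMM (46.7%, against 36.1% of all genes) and 1 toward SOM (6.67%, against 36.0%), with 7 genes not past the threshold and a median log2 difference of -0.21. Slc6a20a, a proline carrier, had 24.5, 19.9, 52.3 and 26.9 normalized counts in EMM and no read in SOM. Set against 3 reads summed over the SOM libraries, it was at least 57.3-fold higher in EMM. Slc17a8, also among the 7, had 20.5 ± 6.59 in EMM and 3.13 ± 0.61 in SOM. Slc6a20a and Slc17a8 passed the filter through their EMM libraries alone, so their places among the 7 are no support for the list's direction. The list's median is the same with Slc6a20a at that bound. Slc16a10, a carrier of aromatic amino acids and thyroid hormone, had 323 ± 45.6 in EMM and 186 ± 13.9 in SOM (log2 difference -0.79, limma adjusted p = 5.36e-06). Tmem104, a poorly studied protein related to amino acid carriers, had 526 ± 23.9 in EMM and 350.4 ± 29.4 in SOM (log2 difference -0.59, limma adjusted p = 3.74e-06). Slc6a17, a vesicle carrier of neutral amino acids, was the gene higher in SOM, with 698 ± 24.8 in EMM and 766 ± 23.0 in SOM (log2 difference 0.13, limma adjusted p = 0.0454). Its call was lost on leaving out EMM replicate 3, EMM replicate 4, or any of SOM replicates 1 to 3, and also with EMM replicates 2 and 3 and SOM replicate 4 left out together.

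**Figure D4:**
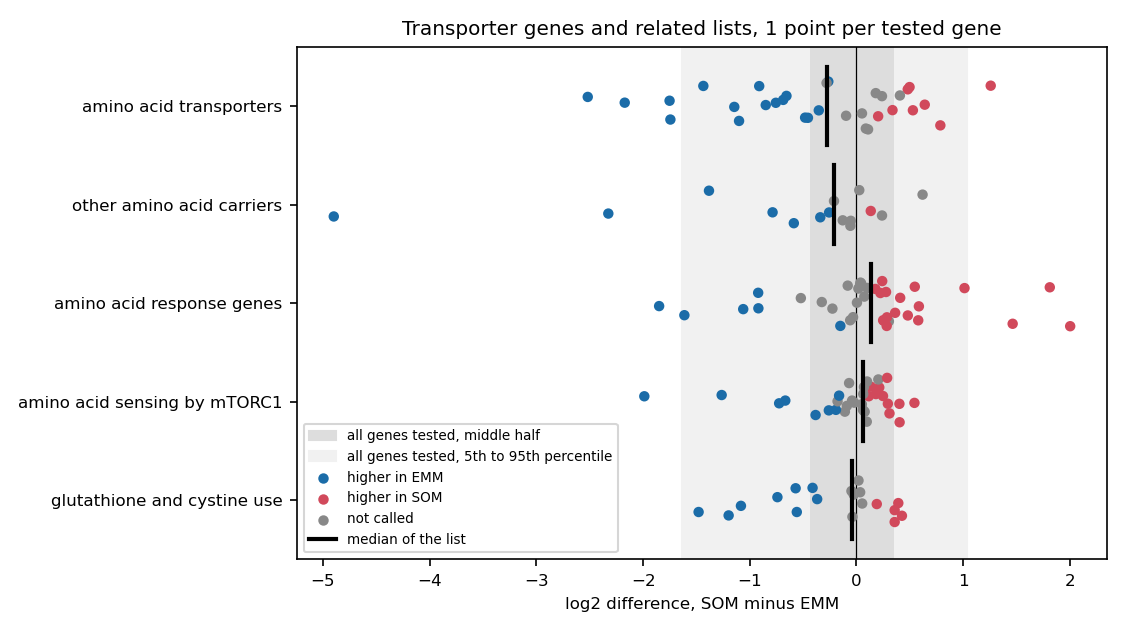
Each point is the log2 difference (SOM minus EMM, x axis) of a tested gene, by list, coloured by call, with the list's median as a black line and the spread of all 14249 tested genes in grey. The medians run from -0.27 for the carriers to 0.14 for the amino acid response genes, and the leftmost point is Slc6a20a, whose fitted value depends on the pseudocount because no SOM read was found.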

How the data were processed

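RNA was sequenced from 4 EMM and 4 SOM pools. The submitters' processing notes name bcl2fastq, STAR, DESeq2 and the mouse build mm10, without versions. The sources used here do not give the read counter, annotation or strand setting. The authors deposited a table of 23420 genes whose library columns hold a signal, the normalized count. Per the file headers and the values, the authors obtained it by dividing reads by one scaling factor for each library. The same deposited table gives the authors' log2 fold change and standard error, the Wald score behind it, and each p-value and adjusted p-value. Every one of the 8 library columns was matched to a sample by title.

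In each library, 100% of the deposited values above 0 were whole multiples of the smallest one, within a relative tolerance of 1e-06, so whole reads were recovered by division. A count test on them, edgeR 4.0.16, called 5262 genes higher in SOM and 5088 in EMM. The main test was limma 3.58.1 in R 4.3.3 on log2(normalized count + 1), with a mean-variance trend, robust moderation and no covariate, because the values are normalized. It kept genes with at least 10 normalized counts in at least 4 libraries (14249 genes), and differences are SOM minus EMM. The fit was tested on simulated data. Alternatives were other pseudocounts, filters and scalings, edgeR, DESeq2 1.42.0 and limma-voom on recovered reads, a replicate block, and libraries left out. Libraries of a group differed beyond sampling noise (chi-square per degree of freedom 3.62 to 18.9), so none was counted as a duplicate.

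The carriers and the related gene lists were chosen with earlier results of these data known. Every carrier is accounted for. Library values are given for the carriers past the threshold whose higher group averaged 100 or more and that are among the 8 largest differences per direction, for Slc3a2, Slc7a5, Slc7a11, Slc1a5 and Slc38a2, and for further carriers chosen after their values were seen. From each related list the 3 genes per direction with the lowest adjusted p were named, except 1 that is not reported here. Coordinates and exon lengths are from GENCODE M21 (GRCm38, the assembly of mm10), which held all 41 symbols. Promoters are from RefSeq (GRCm38.p6). Protein sequences were not used here.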

Additional observations from a re-analysis of the deposited data

Results flagged for a closer look

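In 6 of the 64 groups of 4 libraries examined (32 tested carriers in EMM and in SOM), 1 library lay far from the other 3 by Dixon's gap criterion, which chance alone meets in about 1 of 20 groups. Slc7a11 had 193 normalized counts in EMM replicate 1, above the other EMM libraries, and Slc7a3 had 27.1 in EMM replicate 2, also the highest of its group. EMM replicate 3 was the lowest EMM library for Slc3a1, at 5.23. In SOM, replicate 2 was low for Slc1a4, at 744, and replicate 3 was low for Slc38a4, at 1711. SOM replicate 3 was high for Slc38a7, at 534. Without the library in question, Slc7a11, Slc7a3, Slc1a4, Slc38a4 and Slc38a7 kept their direction and call, and Slc3a1 did not pass with or without it.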

How the results depend on the processing

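Of the 32 tested carriers, 27 kept their direction and their side of the threshold under every alternative run in which they were tested, and the exceptions were Slc1a2, Slc3a2, Slc7a1, Slc7a5 and Slc7a6. The carriers higher in SOM numbered 6 to 9 and those higher in EMM 15 to 19 over all alternatives. Upper-quartile and TMM rescaling moved the median gene by 0.03 and 0.01 on the log2 scale. Carriers that did not pass changed sign in a few fits. Slc1a2 was -0.017 without EMM replicate 4, within a range of -0.02 to 0.31 over the fits that left out 1 library. Slc3a2 was -0.044 without SOM replicate 4, within a range of -0.04 to 0.13, and -0.0021 with EMM replicates 2 and 3 and SOM replicate 4 left out. Among the carriers of other families, where 1 gene was higher in SOM, that number was 2 with a pseudocount of 5 and with upper-quartile rescaling. It was 0 without a filter, with DESeq2, with the replicate block and with those 3 libraries left out, and 0 to 1 with any 1 library left out. The number higher in EMM was 4 in place of 7 with the filter at 50, where fewer genes were tested. With the longest coding transcript as the length, the mean share of Slc38a4 was 49.2% in EMM and 23.7% in SOM, and that of Slc7a8 in SOM was 8.34%. The cause of these changes was otherwise not tested.

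Replicate numbers are shared between the groups, but the sources used here do not say whether same-numbered pools share embryos. The deviations of same-numbered libraries from their group means correlated at 0.13, 0.01, 0.04 and -0.02, so the numbers were not taken as pairs. With the replicate block, 5103 genes were higher in SOM and 5146 in EMM, and 8 and 17 carriers, with Slc7a5 past the threshold (limma adjusted p = 0.0186). The number of reads limits the carriers below the filter, whose counting intervals are wide.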
